A study of Mus musculus with 12 samples.

Results

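Gastrocnemius muscle that had received bupivacaine was compared with gastrocnemius muscle that had not, over all expressed genes and with weight on moderate decreases. All 12 samples of the series entered, 6 with bupivacaine and 6 without, and 15715 of 54532 counted gene IDs passed the filter on low counts and were tested. The mice were C57BL/6, wild type in every group, and 6 to 7 months old. The 6 control samples were 3 naive muscles and 3 muscles injected with saline. The 6 bupivacaine samples were 3 muscles given bupivacaine alone (called injury here) and 3 that received acupuncture needling 24 h after bupivacaine (called needling). Samples were assigned by their labels and not by any measured value.

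Bupivacaine is a local anaesthetic that kills skeletal muscle fibres when injected into muscle, while satellite cells, the muscle stem cells, largely survive and rebuild the fibres. Macrophages clear the debris, satellite cells divide and fuse, and new fibres first express embryonic forms of muscle proteins. Mature fast fibres, which make up most of the mouse gastrocnemius, devote much of their RNA to contractile proteins, calcium handling, glycolysis and mitochondria.

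Total counts per library lay between 16385233 and 27155738. Fast fibre sarcomere genes, the check of the labelled tissue, summed to between 81114 and 221788 CPM (counts scaled to library size by TMM, edgeR's correction for library composition). Neither batches nor the time of collection are given in the sources used here. Nothing there says that the samples of a group were separate animals, so p-values measure only how far these samples differ, which may be technical. Some libraries stood apart. Naive replicate 1 held 2056 CPM of Hspa1a, a heat shock chaperone, where no other sample exceeded 37.8 CPM. Saline replicate 1 and needling replicate 1 were low in slow fibre genes, with median deviations of -2.39 and -1.41 on the log2 scale against 0.01 to 0.88 in the other samples.

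Decreases were many and small, and most large changes were increases. By edgeR's quasi-likelihood test at an adjusted p under 0.05, 2881 genes were lower in bupivacaine muscle, 18.3% of those tested, and 3423 were higher, 21.8%. In 785 of the lower genes (5.0% of genes tested) every bupivacaine sample lay below every control sample, and in 1653 of the higher genes (10.5%) every bupivacaine sample lay above. The median log2 difference was -0.39 over the lower genes and 0.95 over the higher genes. Of the lower genes, 2827 (98.1%) fell by less than 2-fold and 2462 by less than 1.5-fold. Of the higher genes, 1643 rose by at least 2-fold and 718 by at least 4-fold.

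Decreases made up most calls among the genes with the highest levels per length. Ranked by mean deposited FPKM, 67 of the top 100 genes fell and 3 rose, with a median log2 difference of -0.53. Among the next 900 genes, 51.7% fell and 10.1% rose. Among ranks 5001 to 10000, 14.2% fell and 23.6% rose, and from rank 10001 on 3.67% fell and 28.1% rose. The 100 genes with the most counts held 46.6% to 50.6% of all counts in naive, 45.2% to 46.4% in saline, 39.1% to 43.8% in injury and 32.4% to 40.5% in needling samples. In whole-tissue RNA, fewer cells of a type and less RNA per cell cannot be told apart. Macrophage and monocyte markers moved with the decreases: 25 of 27 rose, and their summed level was 224 to 316 CPM in naive, 328 to 767 in saline, 1320 to 2196 in injury and 3020 to 4384 in needling samples. Their part in the decreases was not tested.

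**Figure D1:**
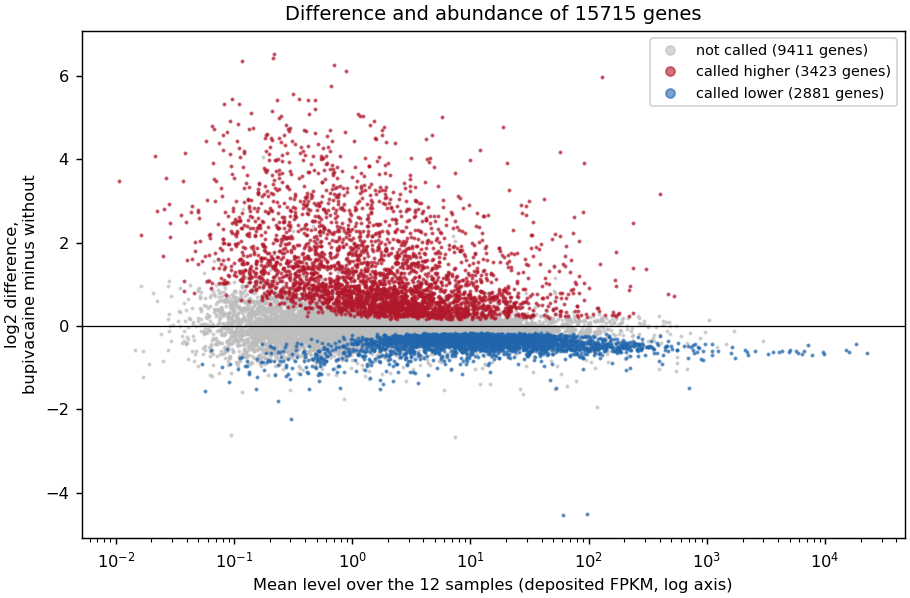
Log2 difference (bupivacaine minus without) of each tested gene against its mean deposited FPKM over the 12 samples, on a log axis, coloured by call at an adjusted p under 0.05. The 2881 genes that fell (blue) lie mostly within 2-fold of no change and toward high FPKM, and the 3423 that rose (red) reach larger differences.

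The scaling bears on the small decreases. TMM put the median of all genes at -0.03, and dividing by library totals alone moved it to 0.29, a shift of 0.32. With library totals 269 genes were lower and 6626 higher, so that 3.90% of calls were decreases, where TMM gave 45.7%. Among the 2881 lower genes, 888 had an estimate of the other sign under library totals, and 0 did under median-ratio or upper-quartile factors. Changes are therefore given relative to TMM, and signs that turn under library totals are named where they occur.

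Pooling narrowed the error, which follows from averaging groups within the same fit. The median standard error of a log2 difference was 0.135 with 6 against 6, and 0.191 to 0.192 in the 4 pairs of a bupivacaine group with a control group. Injury minus naive had 850 lower genes (5.41%) and 1909 higher (12.1%). Injury minus saline had 11 lower (0.0700%) and 622 higher (3.96%). Needling minus naive had 2952 lower (18.8%) and 3593 higher (22.9%), and needling minus saline had 1703 lower (10.8%) and 2853 higher (18.2%). In these pairs, which share samples with the pooled comparison and with each other, the 2881 genes had median log2 differences of -0.36, -0.21, -0.56 and -0.42, in the same order. Within the control and the bupivacaine samples edgeR called 0 genes. Saline minus naive had its smallest adjusted p equal to 0.228, and 1858 genes had p under 0.05 before adjustment. For needling minus injury these were 0.0983 and 2450. The lower genes had medians of -0.16 and -0.20 in those contrasts. With saline alone as control 912 genes were lower and 2129 higher. Injury and needling samples of the same number deviated together, and with a replicate block for these 6 samples, an alternative chosen after seeing the data, 1773 genes were lower. Of the lower and higher genes given by name, Alpk2, Aqp1, Decr1, Dnajc11, Eci1, Ednrb, Egr2, Fastkd3, Flt1, Hspa1a, Hspa1b, Lrrfip1, Lrsam1, Mal, Mast4, Mettl21c, Myh4, Pmp22, Prx, Psmb7, Psmd6, Rab10, Rims4, Rsrc2, Sdf2, Sms, Sox10, Srm, St7l and Wars2 were not called under that block, with adjusted p from 0.0541 to 0.275.

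The largest decreases without overlap included polyamine enzymes. Smox encodes spermine oxidase, which turns spermine back to spermidine (chr2:131491496-131525922, plus strand, mm10). Its levels were 933, 1077 and 1697 CPM (lowest, median and highest of 6, here and below) in control and 417, 556 and 850.1 CPM in bupivacaine samples. All 6 bupivacaine samples lay below all 6 control samples, with a log2 difference of -1.0 ± 0.16 (SE, adjusted p = 3.87e-04). Amd1 encodes S-adenosylmethionine decarboxylase, which makes the aminopropyl donor of polyamine synthesis, and gave -0.92 ± 0.18 (adjusted p = 0.00134). Its near-identical copy Amd2 gave -0.91, and reads of these genes may have been split between them. Spermine synthase, Sms, fell by 0.48 on the log2 scale. Sat1, which acetylates polyamines for breakdown and export, rose by 1.22 ± 0.15 (adjusted p = 5.54e-05), and spermidine synthase, Srm, by 0.68. Of 11 polyamine genes tested, 5 fell and 3 rose. With the block of injury and needling samples 3 were lower and 2 higher.

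Neto2, an auxiliary subunit of kainate-type glutamate receptors in neurons, combined a large difference with a small p (chr8:85636588-85700924, minus strand). Control samples had 20.3, 28.3 and 34.4 CPM and bupivacaine samples 8.92, 14.1 and 15.4 CPM. The sets did not overlap, and the difference was -1.11 ± 0.13 (adjusted p = 2.50e-05). Nmrk2, a muscle nicotinamide riboside kinase that feeds NAD synthesis, went from 304, 371 and 511 CPM to 170.1, 198 and 261 CPM (-0.89 ± 0.13, adjusted p = 1.97e-04). Igfals, the acid-labile subunit that holds insulin-like growth factors in the circulation, went from 4.88, 5.87 and 8.08 CPM to 2.78, 2.92 and 4.76 CPM (-0.95 ± 0.17, adjusted p = 8.95e-04). In both genes all bupivacaine samples lay below all control samples, and injury replicate 3 held the highest bupivacaine value of Igfals. Others without overlap were Mettl21c, a lysine methyltransferase of muscle (-0.92 ± 0.17), Hr, a nuclear corepressor (-0.88 ± 0.18), Kif3c, a kinesin motor subunit (-0.84 ± 0.12), and Ntf5, which encodes neurotrophin 4 (-0.83 ± 0.17).

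Naive replicate 1 enlarged several of these differences. Rims4, a synaptic scaffold gene, went from -1.10 to -0.77, Mast4, a kinase gene, from -0.90 to -0.47, and Alpk2, an alpha kinase gene, from -0.84 to -0.41 without it, with adjusted p-values of 0.0046, 0.0119 and 0.0063. The call of Alpk2 was lost in 9 of the 12 fits that left out 1 sample, with adjusted p up to 0.0896, and stood at 0.432 against saline alone, 0.169 under library totals and 0.179 with the block. That of Mast4 was lost in 8 fits, with adjusted p up to 0.0997, and stood at 0.244, 0.137 and 0.242. Rims4 stood at 0.188 against saline alone. Hspa1a and Hspa1b, near-identical heat shock genes, were called at -4.53 and -4.50. Without naive replicate 1 they stood at -0.85 (adjusted p = 0.207) and -0.48 (adjusted p = 0.456), and neither was called.

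**Figure D2:**
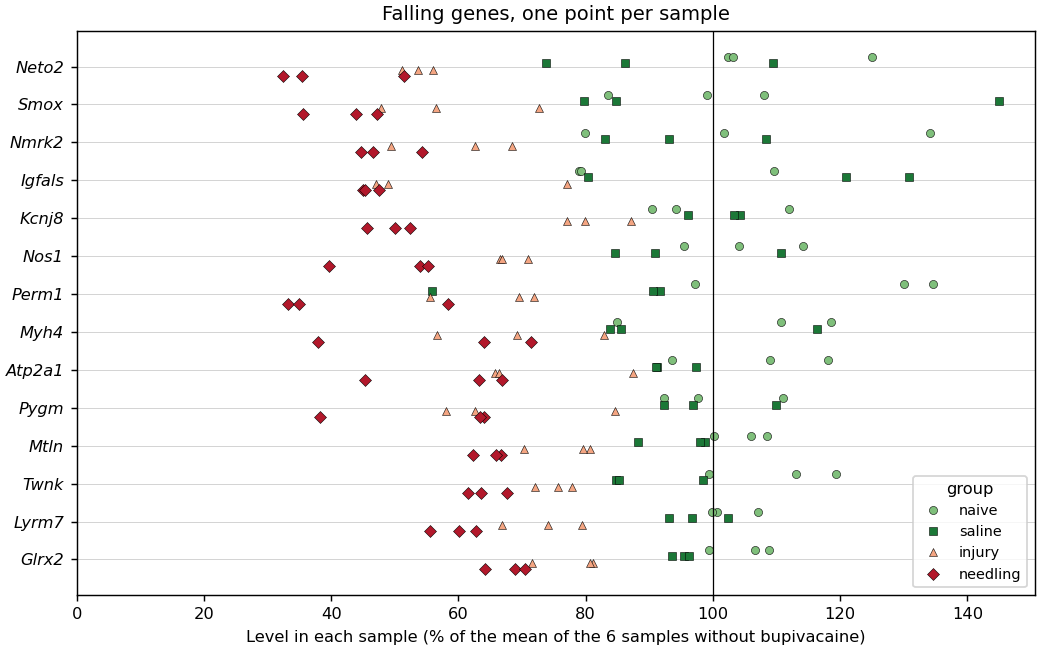
Level of 14 falling genes in each of the 12 samples, as a percentage of the mean of the 6 control samples, with 1 point per sample and 1 symbol per group. In 13 of the genes every injury and needling sample lies below every naive and saline sample, and in Perm1 saline replicate 1 lies among the bupivacaine samples.

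Among the decreases under 2-fold, several of those with the smallest p encode mitochondrial proteins. Kcnj8 encodes the pore of an ATP-sensitive potassium channel known from pericytes and vascular smooth muscle (chr6:142564837-142571614, minus strand). It went from 15.2, 16.8 and 18.9 CPM in control to 7.69, 10.9 and 14.7 CPM in bupivacaine samples (-0.66 ± 0.08, adjusted p = 4.43e-05). The sets did not overlap, and needling samples (8.33 ± 0.586 CPM, SD, n = 3) were lower than injury samples (13.7 ± 0.873), a difference that was not called (adjusted p = 0.105). Nos1, the neuronal nitric oxide synthase that the dystrophin complex anchors at the fibre membrane, went from 109, 128 and 147 CPM to 51.1, 78.5 and 91.3 CPM, without overlap (-0.78 ± 0.10, adjusted p = 5.41e-05). An antisense gene overlaps Nos1, and whether the counting used strand is not given in the sources used here.

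Mtln encodes mitoregulin, a microprotein of the inner mitochondrial membrane. Its control samples had 90.03, 102 and 111 CPM and its bupivacaine samples 63.5, 69.9 and 82.3 CPM (-0.50 ± 0.07, adjusted p = 7.13e-05). Lyrm7, an assembly factor of respiratory complex III, went from 11.7, 12.7 and 13.5 CPM to 7.000, 8.16 and 10.02 CPM (-0.60 ± 0.08, adjusted p = 9.91e-05). Twnk, the helicase that unwinds mitochondrial DNA, went from 28.03, 32.7 and 39.5 CPM to 20.4, 23.1 and 25.8 CPM (-0.52 ± 0.07, adjusted p = 1.02e-04), and its locus overlaps Mrpl43 on the other strand. None of these sets overlapped. Glrx2, a mitochondrial glutaredoxin (-0.46 ± 0.06), Pptc7, a mitochondrial phosphatase (-0.65 ± 0.09), and Tmem126a, an assembly factor of complex I (-0.45 ± 0.06), fell without overlap too. Of the 15 decreases chosen for a small p, the others were Spns2, a sphingosine-1-phosphate exporter (-0.79 ± 0.11), Pkdcc, a secreted kinase (-0.67 ± 0.09), Frat2, a GSK3-binding protein (-0.73 ± 0.10), Tmem94 (-0.53), Fam220a (-0.58), Ss18l2 (-0.48) and 1700021F05Rik (-0.48).

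Fast contractile genes fell. Of 17 fast fibre sarcomere genes tested, 12 fell and 6 had no overlap, with a median log2 difference of -0.59 against -0.03 over all genes. Myh4 encodes the fastest myosin heavy chain. It stood at 39193, 45882 and 55433 CPM in control and 17702, 31138 and 38765 CPM in bupivacaine samples, without overlap (-0.66 ± 0.18, adjusted p = 0.0106). Tnnt3 and Tnni2, fast troponin subunits, gave -0.62 ± 0.13 and -0.57 ± 0.13. Myl1, a myosin light chain, gave -0.63 ± 0.15, Tpm1, a tropomyosin, -0.63 ± 0.16, and Myoz1, a Z-disc protein of fast fibres, -0.70 ± 0.16, all without overlap. With saline alone as control 5 of the list were lower, and with the block of injury and needling samples 8. In the slow fibre sarcomere list edgeR, DESeq2 and limma-voom called 0 of 13 genes, and 0 had an unadjusted p under 0.05. Actn2 and Mybpc1, the listed genes named for their high CPM, stood at -0.22 (adjusted p = 0.565) and -0.19 (adjusted p = 0.702), and both estimates were above 0 under library totals. The list's median of -0.22 turned to 0.11 under library totals. The difference between the fast and slow lists was not tested.

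Scaffold genes of the sarcomere and genes of the triad, where the membrane signal releases calcium, fell alongside. In the Z-disc list 17 of 32 fell and 1 rose (median -0.40). Tmod4 and Tmod1, which cap the thin filament, gave -0.54 ± 0.09 and -0.57 ± 0.10, and Smyd1, a methyltransferase of myosin assembly, -0.45 ± 0.08, without overlap. Of 31 triad genes 20 fell, 9 of them without overlap (median -0.42). Atp2a1, the calcium pump of the fast sarcoplasmic reticulum, went from 21933, 22995 and 28443 CPM to 10912, 15902 and 21083 CPM (-0.61 ± 0.13, adjusted p = 0.00295). Jsrp1, a triad scaffold protein, went from 439, 486 and 569.6 CPM to 298, 354 and 398 CPM (-0.50 ± 0.08, adjusted p = 2.75e-04). Neither gene's sets overlapped, nor did those of Mrln, the micropeptide that restrains the pump (-0.49 ± 0.09). Cacnb1, a calcium channel subunit, and Fxyd1, a sodium pump regulator, fell with overlap (-0.41 ± 0.08 and -0.51 ± 0.10). Saline alone as control left 5 Z-disc and 13 triad genes lower.

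Hrc, a calcium-binding protein of the reticulum, fell by 0.49 on the log2 scale, without overlap. Its promoter is shown because it holds CAGCTG, an E-box of the kind that myogenic factors such as MyoD bind. Hrc is among at least 10 lower genes on the fast fibre and triad lists whose promoters hold that motif, as are Myh4 and Atp2a1. The count left out a chromosome and genes without a promoter sequence. The sequence is RefSeq, GRCm38.p6, chr7:45335019-45335318, plus strand, from 250 bases before the start to 50 after. Capitals mark the motif, which begins 22 bases before the start.
Hrc: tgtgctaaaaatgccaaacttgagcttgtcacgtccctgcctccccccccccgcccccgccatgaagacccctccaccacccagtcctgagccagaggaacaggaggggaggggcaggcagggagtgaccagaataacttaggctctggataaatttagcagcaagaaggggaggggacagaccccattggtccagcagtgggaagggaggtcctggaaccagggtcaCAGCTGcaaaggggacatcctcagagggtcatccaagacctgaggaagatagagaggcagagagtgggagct
CAGCTG reads alike on both strands. It was in 15.6% of promoters of lower genes, 17.8% of those of higher genes and 16% of all promoters of tested genes. Promoter sequences were available for 2162 lower genes, 2638 higher genes and 11262 of the 15713 tested gene symbols. They numbered 14423, because a gene with several promoters entered with each of them.

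Channel genes split. Of 29 excitability channels and ion transporters, 16 fell and 5 rose, 3 with the block (median -0.37). Aqp4, the water channel of fast fibre membranes, went from 34.5, 45.6 and 52.6 CPM to 18.1, 28.4 and 35.7 CPM (-0.72 ± 0.10, adjusted p = 9.80e-05). The lowest control sample, saline replicate 2, lay just under the highest bupivacaine sample, injury replicate 3. Slc9a2, a sodium-proton exchanger, gave -0.52 ± 0.09. Fxyd5, a regulator of the sodium pump, rose by 2.06 ± 0.32. In the dystrophin complex and membrane list 13 of 29 fell and 2 rose: Sgcd, a sarcoglycan, gave -0.37 ± 0.07, and Col6a1, a collagen around fibres, and Itga7, a laminin receptor of fibres, rose by 0.80 ± 0.10 and 0.59 ± 0.11. The median of that list, -0.26, turned to 0.07 under library totals, and 8 of its genes were lower without saline replicate 3.

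Glycolysis had the most members without overlap of the energy lists. Of 17 genes 14 fell and 10 had no overlap, with a median of -0.57. Pygm, the muscle glycogen phosphorylase, went from 8167, 8607 and 9831 CPM to 3381, 5573 and 7485 CPM (-0.70 ± 0.15, adjusted p = 0.00251). Eno3, the muscle enolase, went from 6130, 7234 and 8059 CPM to 3012, 4463 and 5652 CPM (-0.68 ± 0.13, adjusted p = 0.00115). Both were without overlap, as were the glycolytic enzymes Pgam2 (-0.57 ± 0.10), Tpi1 (-0.63 ± 0.12) and Aldoa (-0.59 ± 0.13) and the creatine kinase Ckm (-0.62 ± 0.15). Fbp2, the muscle fructose bisphosphatase of the reverse pathway, gave -0.63 ± 0.12. With saline alone as control 12 of the 17 were lower. In glycogen metabolism 11 of 17 fell and 1 rose: Pgm1, a phosphoglucomutase, gave -0.57 ± 0.13, Ugp2, which makes UDP-glucose, -0.39 ± 0.09, and Pgm2, another phosphoglucomutase, rose by 1.15 ± 0.19. Glycogen genes lower against saline alone numbered 5.

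Nuclear genes of the respiratory chain fell almost throughout. Of 35 complex I subunits 34 fell, 5 without overlap (median -0.49), and of 41 genes of complexes II to V 39 fell and 2 rose (median -0.46). The calls depended on the scaling. Under library totals edgeR called 1 complex I gene and 1 gene of complexes II to V lower. The medians were then -0.17 and -0.14, with 34 and 39 estimates below 0. Ndufb4 and Ndufa13, complex I subunits, went without overlap from 178, 225 and 249.7 CPM to 126, 147 and 176 CPM (-0.55 ± 0.09) and from 219.5, 280.5 and 339 CPM to 156, 190.4 and 209.8 CPM (-0.55 ± 0.09). Cycs, cytochrome c, gave -0.52 ± 0.09, Cox7a1, a muscle and heart subunit of cytochrome oxidase, -0.70 ± 0.13, and Cox8a, the ubiquitous form of subunit 8, rose by 0.63 ± 0.10. These decreases were smaller against saline. The complex I median was -0.48 for injury minus naive and -0.18 for injury minus saline, and that of complexes II to V -0.47 and -0.13. For needling these medians were -0.80 and -0.47, and -0.78 and -0.48. With saline alone as control edgeR called 10 complex I genes and 3 of complexes II to V lower (30 and 18 at an unadjusted p under 0.05). Saline replicate 1, which was low in slow fibre genes, had median deviations of -0.38 and -0.46 in these lists, and needling replicate 1, also low in slow fibre genes, -0.76 and -0.79. Without saline replicate 1, 34 and 39 genes were lower.

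Ndufs4, a complex I subunit, fell by 0.50 on the log2 scale (adjusted p = 4.02e-04). Its promoter is shown because it holds AAGATGGCG, a sequence bound by the factor YY1. With Ndufs4, at least 7 lower genes of the respiratory lists hold that motif in their promoters. The others found were Atp5j, Atp5j2, Ndufa9, Ndufc1, Ndufs6 and Ndufs7. The count left out a chromosome and genes without a promoter sequence. The sequence is RefSeq, GRCm38.p6, chr13:114388045-114388344, minus strand. Capitals mark the motif, which begins at base 36 after the start.
Ndufs4: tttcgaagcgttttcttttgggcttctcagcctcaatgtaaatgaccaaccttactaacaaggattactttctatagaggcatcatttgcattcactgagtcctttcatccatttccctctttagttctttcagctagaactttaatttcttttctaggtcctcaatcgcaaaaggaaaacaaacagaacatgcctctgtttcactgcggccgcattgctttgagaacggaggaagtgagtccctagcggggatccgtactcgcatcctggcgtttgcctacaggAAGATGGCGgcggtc
Searched on both strands, it was in 3.73% of promoters of lower genes, 1.35% of those of higher genes and 2.66% of all. The NRF1 core TGCGCATGC gave 3.31%, 2.25% and 2.66%, and AAGGTCA, a sequence bound by oestrogen-related receptors, 4.27%, 3.18% and 3.49%. The PU.1 sequence GAGGAAGT, known from myeloid genes, ran the other way, at 2.1%, 4.98% and 3.1%. A match is a description, not a bound site.

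Other mitochondrial lists fell too. In the tricarboxylic acid cycle 23 of 28 fell (median -0.50; 3 against saline alone), among them Idh3a, a subunit of isocitrate dehydrogenase (-0.60 ± 0.12), and Mpc2, of the pyruvate carrier (-0.57 ± 0.12). Of 13 genes encoded in mitochondrial DNA 9 fell (median -0.65), but edgeR called 0 against saline alone (7 lower at an unadjusted p under 0.05), and the median was -0.67 for injury minus naive and -0.17 for injury minus saline. In the full comparison mt-Nd1 stood at -0.63 ± 0.13 and mt-Nd2 at -0.67 ± 0.13. Import and membrane dynamics had 17 of 25 lower (2 against saline alone), among them Timm23, the inner membrane channel (-0.55 ± 0.09), and Slc25a4, the adenine nucleotide translocase of muscle (-0.64 ± 0.12), both without overlap. The median of that list, -0.30, turned to 0.02 under library totals. Fatty acid genes depended on 1 library or another: 11 of 27 fell, 1 against saline alone, 4 with the block, 22 without saline replicate 1, 7 without injury replicate 1 or needling replicate 2, 6 without injury replicate 3, and 5 without naive replicate 2 or 3, saline replicate 2 or 3, injury replicate 2 or needling replicate 1. Eci1 and Decr1, enzymes of unsaturated fatty acid oxidation, gave -0.56 ± 0.13 and -0.47 ± 0.13. Mitochondrial ribosomal proteins had 29 of 39 lower (5 against saline alone and 17 with the block), with Mrpl15 at -0.40 ± 0.06 and Mrpl37 at -0.36 ± 0.07. That count was 14 without naive replicate 2, saline replicate 2 or saline replicate 3, 16 without injury replicate 3 or needling replicate 1, and 18 without naive replicate 3. Its median of -0.24 turned to 0.08 under library totals.

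Smaller metabolic lists were mixed. In creatine, adenylate and carnosine metabolism 8 of 13 fell and 4 rose, with 5 lower without naive replicate 1, 2 against saline alone and 5 with the block. Adsl, adenylosuccinate lyase of the purine cycle, gave -0.40 ± 0.08 without overlap. Gatm, which makes the creatine precursor guanidinoacetate, rose from 3.04, 4.49 and 5.90 CPM to 9.44, 17.1 and 24.4 CPM (1.93 ± 0.16, adjusted p = 5.31e-06), Cndp2, a dipeptidase, by 0.89 ± 0.11 and the taurine transporter Slc6a6 by 0.32 ± 0.07. The rises of Gatm and Cndp2 were without overlap. In amino acid catabolism 12 of 23 fell (3 against saline alone), with Aldh4a1 of proline breakdown at -0.49 ± 0.10 and Bckdk, the kinase that restrains branched-chain breakdown, at -0.49 ± 0.11. That count was 7 without naive replicate 2, saline replicate 2 or 3, injury replicate 2 or needling replicate 1. The antioxidant and circadian lists had shares of lower genes near the 18.3% of all genes tested. Among antioxidant enzymes 5 of 25 fell (by edgeR 0 against saline alone, where 4 had an unadjusted p under 0.05, and 3 with the block) and 3 rose: the mitochondrial enzymes Sod2 and Prdx3 gave -0.57 ± 0.11 and -0.46 ± 0.10, and Gpx1 and Txn1, glutathione peroxidase and thioredoxin, rose by 0.86 ± 0.11 and 0.89 ± 0.11. The list's count of lower genes was 2 without naive replicate 2 or saline replicate 2 and 3 without saline replicate 3, any 1 injury sample or needling replicate 1. In the circadian list 3 of 17 fell (1 against saline alone), the repressors Bhlhe41 (-0.61 ± 0.13), Cry1 (-0.35 ± 0.10) and Nr1d2 (-0.35 ± 0.11), with 1 lower without saline replicate 3 and 5 without naive replicate 3.

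Regulators of fibre metabolism fell. Perm1, a muscle regulator of mitochondrial genes, went from 139.5, 236 and 336 CPM to 82.95, 142 and 179 CPM (-0.90 ± 0.17, adjusted p = 0.00149), with saline replicate 1 among the bupivacaine samples. Ppargc1a, the coactivator PGC-1 alpha, gave -0.50 ± 0.11, Sirt3, a mitochondrial deacetylase, -0.46 ± 0.10, Esrra, an oestrogen-related receptor that works with PGC-1 alpha, -0.49 ± 0.11, and Prkab2, a subunit of AMP-activated kinase, -0.70 ± 0.18. Camkk2, an upstream kinase of AMP-activated kinase, rose by 0.87 ± 0.13. Over the energy sensing list 12 of 26 fell and 2 rose, with 2 lower against saline alone. In insulin signalling 7 of 19 fell and 2 rose, and 4 were lower without saline replicate 3. Rab10, a small GTPase that brings the glucose transporter to the membrane, gave -0.45 ± 0.10, the insulin receptor Insr -0.46 ± 0.11, its substrate Irs1 -0.45 ± 0.16 and the transporter Slc2a4 -0.44 ± 0.12, while Grb10, an adaptor that restrains the receptor, rose by 0.94 ± 0.12. Irs1 was called in 2 of the 12 fits that left out 1 sample.

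Transcription factors, ubiquitin ligases and kinases of mature fibres held moderate decreases. Among ligases and FoxO factors 17 of 31 fell (median -0.41; 8 against saline alone). Foxo4, a FoxO transcription factor, went from 163, 180.2 and 279 CPM to 85.2, 124 and 144 CPM (-0.67 ± 0.12, adjusted p = 7.03e-04), and Asb10, Asb14 and Rnf123, ligase components, gave -0.66 ± 0.14, -0.62 ± 0.14 and -0.52 ± 0.11, all without overlap. Among transcription regulators 15 of 36 fell, 4 against saline alone, with 9 without naive replicate 2 or needling replicate 2. Eya1, a coactivator of fast fibre genes, went from 27.5, 31.3 and 34.3 CPM to 16.8, 22.6 and 25.9 CPM (-0.51 ± 0.08, adjusted p = 3.62e-04). Thra, a thyroid hormone receptor whose locus overlaps Nr1d1 on the other strand, gave -0.45 ± 0.09, and Bcl6, a repressor, -0.52 ± 0.12. The median of that list, -0.28, turned to 0.05 under library totals.

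Protein kinases and phosphatases of fibres had 18 of 24 lower (median -0.47; 8 against saline alone). Pde4a and Pde4d, cyclic AMP phosphodiesterases, gave -0.62 ± 0.12 and -0.55 ± 0.11. Dnajb5, a cochaperone that belongs to the heat shock list, gave -0.53 ± 0.10. In that list 3 of 20 genes fell, where 18.3% of all genes tested did, and 1 was lower without naive replicate 1. Speg, a striated muscle kinase of the triad, gave -0.58 ± 0.11 without overlap, and Alpk3, an alpha kinase of muscle, -0.59 ± 0.11 with overlap. Their promoters are shown because they hold sequences bound by MEF2 factors of muscle, CTAAAAATA in Speg and CTATTTATA in Alpk3, the latter on the other strand. The sequences are RefSeq, GRCm38.p6, chr1:75375047-75375346 and chr7:81057350-81057649, both plus strand, with the motifs in capitals beginning 51 and 34 bases before the start.
Speg: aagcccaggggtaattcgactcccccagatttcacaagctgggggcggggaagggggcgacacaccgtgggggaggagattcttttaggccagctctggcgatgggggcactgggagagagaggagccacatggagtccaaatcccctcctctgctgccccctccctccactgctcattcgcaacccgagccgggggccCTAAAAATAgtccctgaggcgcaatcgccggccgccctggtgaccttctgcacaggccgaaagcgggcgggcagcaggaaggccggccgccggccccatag
Alpk3: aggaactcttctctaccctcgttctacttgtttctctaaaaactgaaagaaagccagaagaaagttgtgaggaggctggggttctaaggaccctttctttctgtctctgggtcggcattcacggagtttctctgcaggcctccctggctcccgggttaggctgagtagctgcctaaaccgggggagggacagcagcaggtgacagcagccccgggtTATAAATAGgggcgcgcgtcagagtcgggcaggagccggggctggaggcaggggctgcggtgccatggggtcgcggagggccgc
Searched on both strands, CTAAAAATA was in 0.533%, 0.18% and 0.354% of the promoters of lower, higher and all tested genes, and CTATTTATA in 0.533%, 0.3% and 0.423%.

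Vessel and nerve genes moved both ways. Over all genes tested 18.3% fell and 21.8% rose. The capillary endothelium and Schwann cell lists had shares of lower genes not far above the former, and no list was tested as a set. Vegfa, the endothelial growth factor that fibres secrete, went from 224, 266 and 278 CPM to 128, 179.5 and 222 CPM, without overlap (-0.56 ± 0.09, adjusted p = 2.81e-04). Of 24 capillary endothelium genes 6 fell and 1 rose, with 3 lower without saline replicate 2. With the block of injury and needling samples 1 was lower and 0 higher by edgeR (6 and 1 at an unadjusted p under 0.05). Flt1, a Vegfa receptor, gave -0.39 ± 0.09, Aqp1, a water channel, -0.35 ± 0.10 (adjusted p = 0.103 with the block), and Erg, an endothelial transcription factor, -0.44 ± 0.13, while Ednrb, an endothelin receptor, rose by 0.82 ± 0.19. The list's median, -0.27, turned to 0.06 under library totals. Of 12 pericyte and smooth muscle genes 6 fell and 2 rose, with Rgs5, a pericyte marker, at -0.55 ± 0.10 and Myh11, smooth muscle myosin, at -0.61 ± 0.14. In the Schwann cell and nerve list 4 of 15 fell and 5 rose. With the block edgeR called 0 lower and 3 higher (1 and 5 at an unadjusted p under 0.05), and Mal, Sox10 and Prx stood at adjusted p = 0.14, 0.166 and 0.104. Genes of myelinating cells went both ways: Mal (-0.89), Sox10 (-0.83) and Prx (-0.65) were among those that fell, while Pmp22, a myelin protein, rose by 0.43 ± 0.09, Egr2, a transcription factor of myelination, by 1.49 ± 0.35, Drp2, a Schwann cell partner of periaxin, by 0.56 ± 0.20 and Ngfr, a neurotrophin receptor, from 0.0625, 0.518 and 0.802 CPM to 0.732, 1.44 and 1.96 CPM (adjusted p = 0.00153). Ncam1, an adhesion molecule, rose by 1.28 ± 0.19. Mal, Sox10, Prx and Drp2 were picked after their values were seen, and 2 of the list fell without naive replicate 2, saline replicate 1, injury replicate 2 or 3, or needling replicate 1.

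**Figure D3:**
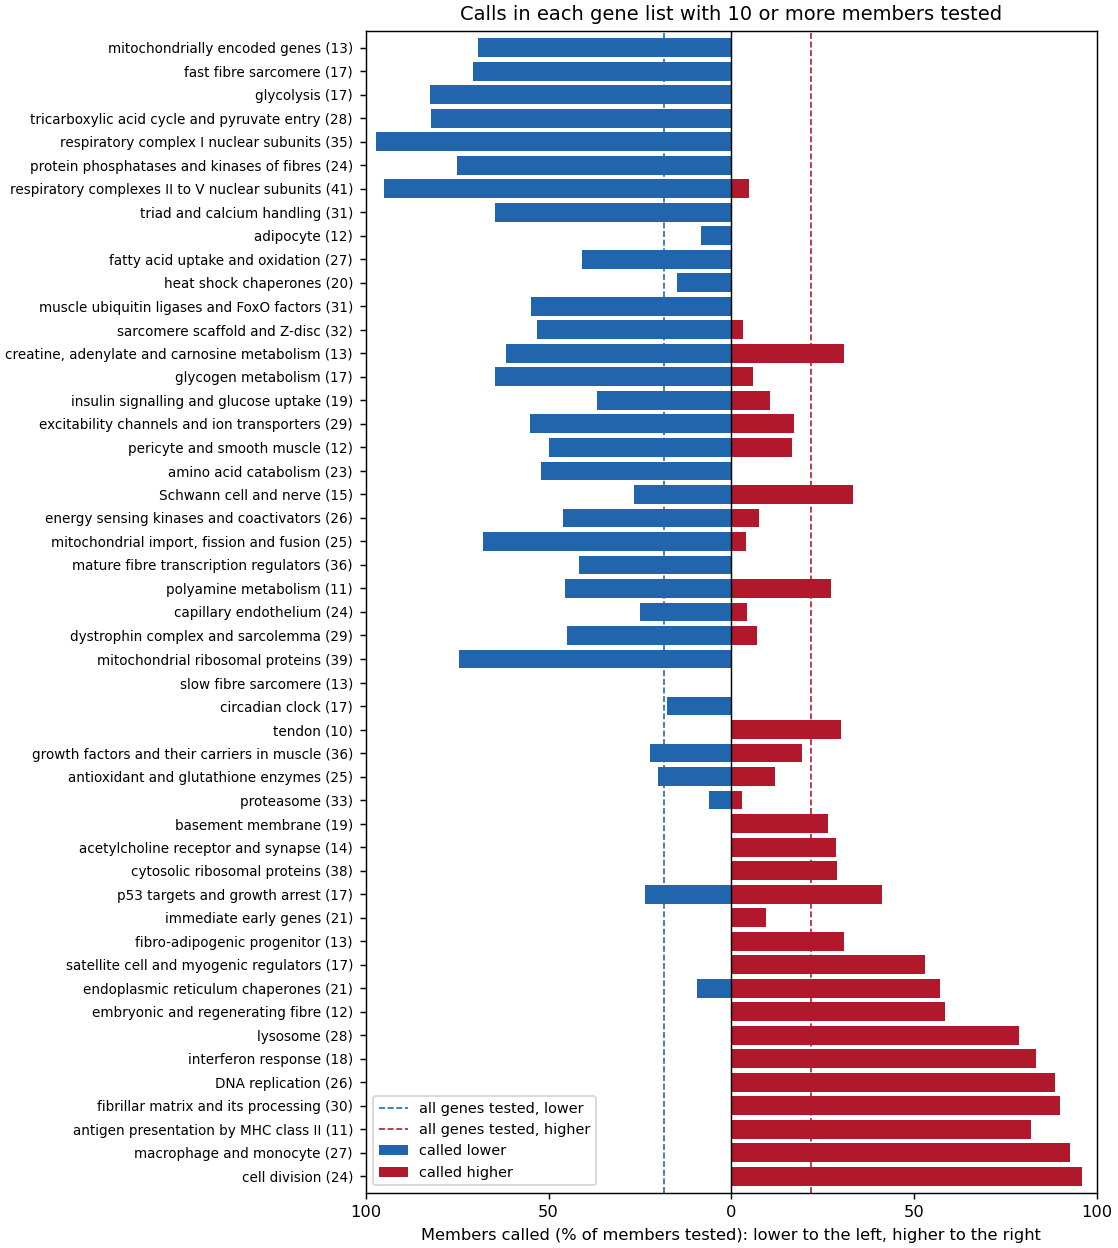
Share of tested members called lower (left) or higher (right) in each gene list with at least 10 members tested, with dashed lines at the shares over all genes, 18.3% and 21.8%. Respiratory chain, glycolysis and tricarboxylic acid cycle lists reach farthest to the left, and cell division, macrophage and matrix lists farthest to the right.

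Pooling also called decreases that no group pair called. There were 180 among the 15715 genes tested, with a median log2 difference of -0.32. Of these 180, 21 had no overlap, where 785 of all 2881 lower genes had none. Cby1, an antagonist of beta-catenin, had the smallest p, going from 14.7, 16.6 and 18.4 CPM to 12.1, 13.2 and 14.5 CPM (-0.31 ± 0.08, adjusted p = 0.00752). Wars2, the mitochondrial tryptophan tRNA ligase, went from 7.31, 8.40 and 9.39 CPM to 5.71, 6.86 and 7.22 CPM (-0.32 ± 0.11, adjusted p = 0.0304). Lrrfip1, St7l, Lrsam1, Fastkd3, Dnajc11, Rsrc2, Fiz1 and Sdf2 lay between -0.30 and -0.18. Cby1 passed in all 12 fits that left out 1 sample, and the other 9 failed in 6 to 11 of them. All 10 estimates were at or above 0 under library totals.

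**Figure D4:**
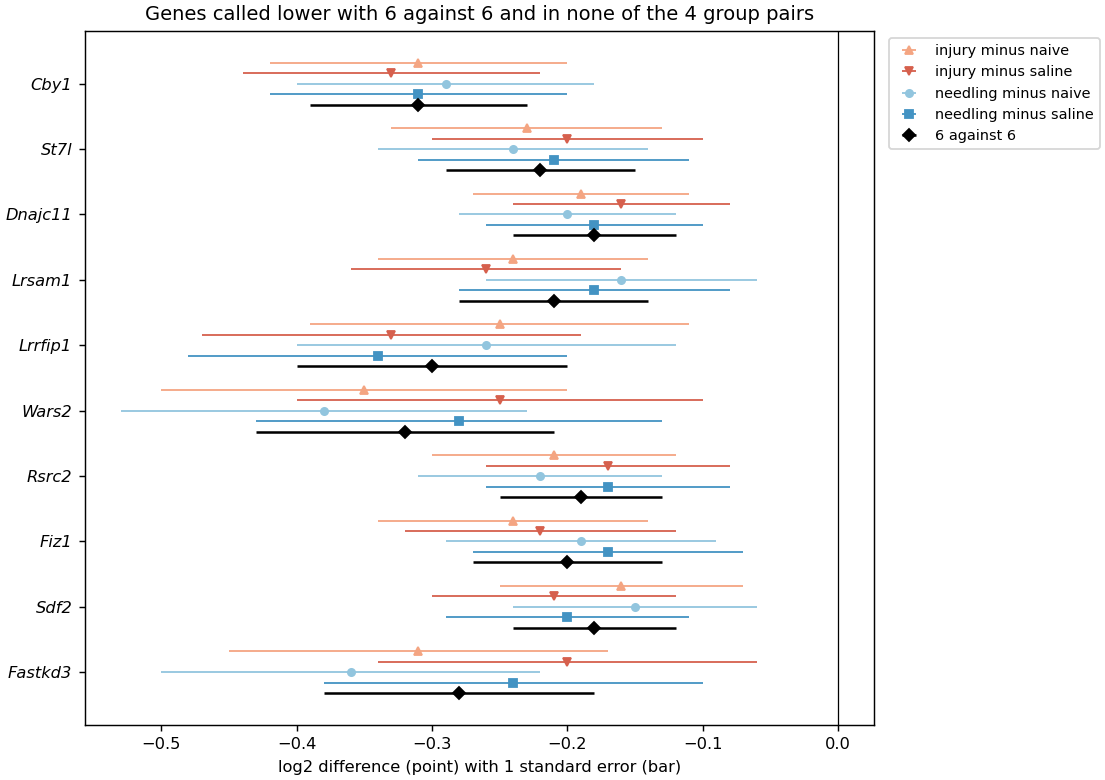
Log2 difference with 1 standard error for 10 genes called with 6 against 6 and in none of the 4 group pairs. The black pooled estimates, from -0.32 to -0.18, have shorter error bars than the coloured pair estimates.

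Other housekeeping groups held few decreases. Of 38 cytosolic ribosomal proteins 0 fell and 11 rose (median 0.15), a count of higher genes that ran from 5 without needling replicate 2 to 17 without needling replicate 3. DESeq2 and limma-voom also called 0 of them lower, and 2 of the 38 estimates were below 0. In the proteasome 2 of 33 fell and 1 rose, with 26 of the 33 estimates below 0. Under library totals 0 of the 33 estimates were below 0, and 22 genes were called higher. Those that fell were Psmb7 (-0.27) and Psmd6 (-0.19) with estimates above 0 under library totals. DESeq2 called 6 lower. Endoplasmic reticulum chaperones had 12 of 21 higher, led by Pdia4, a disulfide isomerase (1.22 ± 0.10), and 2 lower.

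Pairs of muscle-type isoforms and their widely expressed partners were chosen after their values were seen, so the counts describe that choice. Of these 20 pairs, the muscle member fell in 18, the partner rose in 16, and both held in 15. Creatine kinase went by -0.62 for Ckm and 1.62 for Ckb, elongation factor 1A by -0.51 for Eef1a2 and 1.37 for Eef1a1, ribosomal protein L3 by -0.69 for Rpl3l and 1.31 for Rpl3, and phosphofructokinase by -0.60 for Pfkm and 1.14 for Pfkp. The adenine nucleotide translocase gave -0.64 for Slc25a4 and 1.02 for Slc25a5, phosphoglycerate mutase -0.57 for Pgam2 and 1.28 for Pgam1, enolase -0.68 for Eno3 and 0.89 for Eno1, and alpha-actinin -0.61 for Actn3 and 1.31 for Actn1. In 6 pairs neither member's sets overlapped. The muscle members not called were Prkag3 (-0.32) and Atp1b1 (-0.19), the latter above 0 under library totals. Partners that did not rise were Cox7a2, which fell (-0.41), and Slc2a1 (0.34, adjusted p = 0.0557), Atp2a2 (-0.24, adjusted p = 0.694) and Prkag1 (-0.20, adjusted p = 0.139), which were not called. Atp2a2 and Prkag1 had estimates above 0 under library totals. Eef1a1, Rpl3, Slc25a5, Pgam1 and Eno1 have processed pseudogene copies, so their counts are uncertain.

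**Figure D5:**
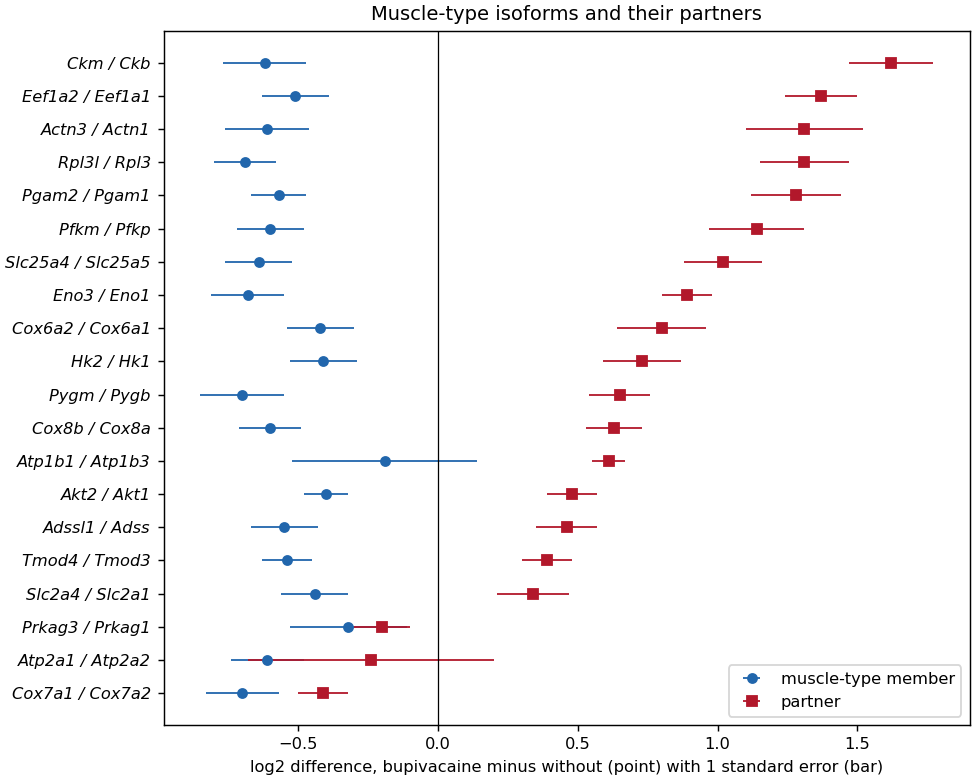
Log2 difference with 1 standard error for the muscle-type member (blue circles) and the partner (red squares) of 20 isoform pairs. All muscle-type members lie below 0, and most partners lie above it, with Cox7a2, Atp2a2 and Prkag1 below.

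The increases were larger. Spp1, osteopontin, rose by 5.97 ± 0.89, Cdk1 and Ccnb1, drivers of mitosis, by 5.09 ± 0.42 and 5.03 ± 0.34, and Mymk, which fuses myoblasts, by 5.02 ± 0.63. Mmp12, a macrophage elastase, rose by 5.04 ± 0.48, Lyz2, lysozyme of macrophages, by 3.16 ± 0.27, Cd74, the invariant chain of antigen presentation, by 1.43 ± 0.11, and Lipa, a lysosomal lipase, by 2.24 ± 0.18. The list of growth factors and their carriers was mixed: 8 of 36 genes fell and 7 rose, where 18.3% and 21.8% of all genes tested did. In it Hgf, which activates satellite cells, rose by 4.21 ± 0.42. Chrng, the embryonic subunit of the acetylcholine receptor and a gene of regenerating fibres, rose by 4.71 ± 0.56. In the cell division list 23 of 24 rose and in the fibrillar matrix list 27 of 30, with Col3a1, a fibrillar collagen, at 1.92 ± 0.15. Myog, a myogenic transcription factor, rose by 2.90 ± 0.35. Of 13 neutrophil markers 5 passed the filter on low counts, and 2 of these rose. The 5 summed to 1.76 to 10.1 CPM in naive, 3.26 to 4.555 in saline, 5.34 to 8.49 in injury and 10.5 to 15.8 in needling samples. Mast cell and red blood cell lists had 0 of 6 and 0 of 5 genes called by edgeR, with 0 at an unadjusted p under 0.05 and 0 lower by DESeq2 or limma-voom.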

How the data were processed

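RNA libraries (Trizol extraction, NEBNext Ultra kit, Illumina sequencing, per the labels' protocols) gave raw counts per gene, which the authors deposited together with FPKM values. Reads were aligned with HISAT2 2.0.5 to mm10, per the submitters' processing notes, while the counting tool, its annotation and its use of strand are not given in the sources used here. Of 54532 gene IDs, 54495 matched a GENCODE M21 symbol. The deposited FPKM values were used to rank genes by level per length and, as log2(FPKM + 1) and log2(FPKM + 0.1) with limma, as alternatives.

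Counts were filtered by edgeR's filterByExpr, scaled by TMM and fitted with 1 mean per group over all 12 samples (edgeR 4.0.16 quasi-likelihood, R 4.3.3). The contrast was the mean of injury and needling minus the mean of naive and saline, two-sided, with Benjamini-Hochberg adjustment over 15715 genes and a threshold of 0.05. The script was tested on simulated data. Alternatives used limma 3.58.1 and DESeq2 1.42.0, other scalings, filters, controls and each sample left out. The pairing of replicate numbers was checked by correlating how same-numbered samples departed from their group means, and only injury with needling exceeded 0.1 in all 3 pairs.

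Named genes were, among protein-coding genes called without overlap and with at least 5 CPM in the higher set, the 15 largest decreases, the 10 largest increases, the 15 decreases under 2-fold and the 10 called in no group pair with the smallest p, the 10 decreases with the highest CPM, and from each list described the 4 genes with the smallest adjusted p. Sms, Srm, Insr, Irs1, Slc2a4, Esrra, Prkab2, Mal, Sox10, Prx, Drp2, Hrc and the isoform pairs were named after their values were seen where the rule did not name them. Members and lists were chosen with earlier results of these data known. Some genes that the rule names are not reported here.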

Additional observations from a re-analysis of the deposited data

Results flagged for a closer look

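In each set of 6 samples, a sample was singled out when its gap to the nearest other sample on the log2 scale, divided by the range of the set, exceeded Dixon's 95% critical value. Over 176 genes and 352 such tests, 18 values of single genes stood apart, about the 1 in 20 that this critical value would give in independent tests. The genes share the same samples, and several of the values fell in saline replicate 1 or naive replicate 1, so the tests were not independent. Whether any single value arose by chance was not tested. Actn2 was lowest in needling replicate 1 at 343 CPM against 869 to 1026 CPM in the other 5 bupivacaine samples. Actn2 was lowest in saline replicate 1 at 380 CPM against 955 to 1232 CPM in the other 5 control samples. Aldoa was lowest in needling replicate 2 at 7039 CPM against 10144 to 12429 CPM in the other 5 bupivacaine samples. Alpk2 was highest in naive replicate 1 at 256 CPM against 69.2 to 85.6 CPM in the other 5 control samples. Atp1b1 was lowest in needling replicate 1 at 71.5 CPM against 157 to 215 CPM in the other 5 bupivacaine samples. Atp1b1 was lowest in saline replicate 1 at 65.0 CPM against 192 to 250 CPM in the other 5 control samples. Atp2a2 was lowest in saline replicate 1 at 57.9 CPM against 296 to 548 CPM in the other 5 control samples. Fiz1 was lowest in injury replicate 1 at 20.5 CPM against 23.6 to 25.4 CPM in the other 5 bupivacaine samples. Hspa1b was highest in naive replicate 1 at 3154 CPM against 3.36 to 42.5 CPM in the other 5 control samples. Igfals was highest in injury replicate 3 at 4.76 CPM against 2.78 to 3.02 CPM in the other 5 bupivacaine samples. Insr was highest in naive replicate 1 at 168 CPM against 115 to 129 CPM in the other 5 control samples. Lrrfip1 was highest in saline replicate 1 at 250 CPM against 198 to 210 CPM in the other 5 control samples. Mast4 was highest in injury replicate 3 at 61.4 CPM against 50 to 52.8 CPM in the other 5 bupivacaine samples. Mybpc1 was lowest in saline replicate 1 at 342 CPM against 1282 to 1861 CPM in the other 5 control samples. Ngfr was lowest in naive replicate 1 at 0.0625 CPM against 0.373 to 0.803 CPM in the other 5 control samples. Pgm1 was lowest in needling replicate 2 at 898 CPM against 1301 to 1610 CPM in the other 5 bupivacaine samples. Slc6a6 was lowest in injury replicate 2 at 169 CPM against 192 to 207 CPM in the other 5 bupivacaine samples. Wars2 was lowest in needling replicate 2 at 5.71 CPM against 6.69 to 7.22 CPM in the other 5 bupivacaine samples.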

How the results depend on the processing

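The 2881 lower and 3423 higher genes stayed within 1.5 times under median-ratio (2834 and 3445) and upper-quartile factors, DESeq2 (2987 and 3499), limma-voom (3396 and 3709), both filters, 2 pooled means, FPKM and a replicate block over all samples (3158 and 3552). Library totals gave 269 and 6626, of which 35 and 2918 did not overlap. Saline alone gave 912 and 2129, and naive alone 2005 and 2572 without overlap. A minimum of 1.2-fold left 718 lower genes, 374 without overlap, with 22.50% of calls lower, and an adjusted p under 0.01 left 1467. The replicate block of injury and needling left 1773. Leaving out 1 sample gave 2025 to 2923 lower, 3011 to 3755 higher and 748 to 1376 lower without overlap, the last without injury replicate 3. Signs turned under library totals for Actn2 (0.10), Atp1b1 (0.12), Atp2a2 (0.07), Cby1 (0.01), Dnajc11 (0.14), Fastkd3 (0.04), Fiz1 (0.12), Lrrfip1 (0.02), Lrsam1 (0.11), Mybpc1 (0.12), Prkag1 (0.13), Psmb7 (0.05), Psmd6 (0.13), Rsrc2 (0.13), Sdf2 (0.14), St7l (0.10) and Wars2 (0.00), with saline alone for Atp2a2 (0.10) and Mybpc1 (0.05), and without saline replicate 2 for Atp2a2 (0.02; from -0.46 to 0.02 over the samples left out). The cause was not tested. With 3 samples a group, differences near the median standard error cannot be resolved.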
